A study of Mus musculus with 25 samples.

Results

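Csf3, which encodes the granulocyte growth factor G-CSF, and genes that mark neutrophils were followed through mouse basal cell carcinomas (BCC) and a BCC cell line. The 9 genes were picked by symbol: Csf3, Csf3r, Cxcr2, Il1b, S100a8, S100a9, Ly6g, Retnlg and Clec4d. They were chosen because earlier results of these tumours had shown several of them higher in resistant tumours, so their tumour values are given as a description, without a test. Of the 9, 8 had a row among the 24015 genes listed in the tumour table and in the cell table, and Ly6g was not analysed here.

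The tumours arose in C57BL6 mice that were Ptch+/- and carried K14 Cre-ER together with p53 fl/fl. The keratin 14 promoter drives that inducible Cre in basal keratinocytes. RNA was sequenced from 4 tumours labelled sensitive (S1 to S4, by replicate number) and 4 labelled resistant (R1 to R4). Mice of both groups received a Smo inhibitor by mouth, so the comparison has no untreated arm, and the labels name neither the agent nor its dose or duration, nor the age or sex of the mice. ASZ001, a single mouse BCC line labelled as resistant BCC cells, was cultured with vehicle, CCG-1423 (an inhibitor of transcription driven by MRTF and SRF) or vismodegib (a Smo inhibitor), with 3 libraries for each treatment. The series also holds 8 exome samples, which carry no expression values and were not used here. The labels do not say whether replicates came from separate animals or cultures, so p-values measure the spread between these libraries, which may be technical.

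G-CSF is released by fibroblasts, endothelium, macrophages and some tumour cells, and its receptor, encoded by Csf3r, carries the signal that makes and mobilises neutrophils. Neutrophils leave the marrow and enter tissue along gradients of CXC chemokines, which the receptor Cxcr2 reads. Interleukin-1 beta, tumour necrosis factor and interleukin-17 are known inducers of Csf3 and of these chemokines. S100a8 and S100a9 encode the subunits of calprotectin, an abundant cytosolic protein of neutrophils, but stressed keratinocytes can make them too. Il1b is also made by macrophages and monocytes, Retnlg encodes a resistin-like secreted protein of granulocytes, and Clec4d encodes a C-type lectin receptor of myeloid cells.

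The sequence before the transcription start was drawn on because most members are read as genes of 1 cell type, and factors of that cell type are known to bind short motifs. RefSeq promoter windows on GRCm38.p6 matched 8 of the 9 listed genes, Ly6g among them. Csf3 was not matched. The 250 bases before the start were searched on both strands for 5 motifs. The start is that of the promoter entry. For Csf3r it lies inside the annotated gene, chr4:126023441-126044975, so its matches precede an internal start. The Il1b window overlaps its annotated gene, which ends at 129371164. The other windows adjoin the annotated gene. The C/EBP motif was TTNNGNAA and the PU.1 core was GAGGAAG. The letters TATAAA, which mark many core promoters, stand for the TATA box. Sites of AP-1, the Fos and Jun dimer, were searched as TGANTCA, and the NF-kB consensus was searched too. None of these motifs contains another. The 4 windows below are shown because calprotectin, Il1b and the G-CSF receptor carry much of what the tumours show, with every match in capitals. They are S100a8 at chr3:90668821-90669070 on the plus strand, S100a9 at chr3:90695722-90695971 on the minus strand, Il1b at chr2:129371140-129371389 on the minus strand and Csf3r at chr4:126024409-126024658 on the plus strand, each written 5′ to 3′.
S100a8: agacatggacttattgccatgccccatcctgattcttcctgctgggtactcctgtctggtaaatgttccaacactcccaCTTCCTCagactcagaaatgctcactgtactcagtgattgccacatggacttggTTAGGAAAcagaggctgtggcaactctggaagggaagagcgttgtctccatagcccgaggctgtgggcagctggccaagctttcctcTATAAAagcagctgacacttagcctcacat
S100a9: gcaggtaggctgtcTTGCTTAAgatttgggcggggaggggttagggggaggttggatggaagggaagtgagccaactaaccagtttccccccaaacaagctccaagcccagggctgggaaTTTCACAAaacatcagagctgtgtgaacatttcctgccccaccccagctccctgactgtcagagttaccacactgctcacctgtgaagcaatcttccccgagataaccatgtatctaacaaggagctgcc
Il1b: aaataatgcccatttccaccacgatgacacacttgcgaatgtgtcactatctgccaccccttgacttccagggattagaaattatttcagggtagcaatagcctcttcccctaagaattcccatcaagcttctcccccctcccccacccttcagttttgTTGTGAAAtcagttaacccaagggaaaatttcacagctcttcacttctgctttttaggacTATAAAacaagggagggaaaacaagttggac
Csf3r: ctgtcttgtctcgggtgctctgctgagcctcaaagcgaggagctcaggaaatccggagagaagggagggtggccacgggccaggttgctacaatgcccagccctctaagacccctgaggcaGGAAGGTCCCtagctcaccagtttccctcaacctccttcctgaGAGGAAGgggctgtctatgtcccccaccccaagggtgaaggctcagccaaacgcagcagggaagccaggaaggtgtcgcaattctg
The S100a8 window holds a PU.1 core, a C/EBP match and a TATA box 30 bases before the start. Il1b holds a C/EBP match and a TATA box 31 bases before the start, S100a9 holds 2 C/EBP matches, and Csf3r holds an NF-kB consensus and a PU.1 core. C/EBP matched in 6 of the 8 windows, and in 36.8% of the 32851 promoter windows in the table. The PU.1 core matched in 4 of 8 against 10.6% of all windows, and the TATA box in 3 of 8 against 12.4%. The NF-kB consensus matched in 1 of 8 against 7.25%, and AP-1 in 0 of 8 against 6.75%. A match describes letters and is neither a bound site nor a cause.

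The tumour tables hold normalized counts, which are reads divided by a size factor for each library. Reads at genes numbered 8111252 to 11125956 in S1 to S3, 14161398 in S4 and 17537094 to 20014426 in the resistant tumours. Depth therefore moved with the group, and its part in the results was not tested. The library S4 stood apart from the other sensitive tumours. On the first principal component, which held 65.9% of the variance, S1 to S3 lay between -98.1 and -88.7. S4 lay at 66.0, beside the resistant tumours at 48.3 to 65.4. Reads of 4 Y-linked genes were present in S1 to S3 and numbered 0 in S4 and in every resistant tumour. Without S4, sex and group therefore cannot be told apart. The label of S4 may be wrong, and no value here settles it, so each sensitive mean and each difference that includes S4 is conditional on that label. Results are given with and without this library, under the label it carries.

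Csf3 was high in all 4 resistant tumours and in S4, and near 0 in the other sensitive tumours. Its normalized count was 3414, 2626, 1423 and 603 in R1 to R4. In S1 to S3 it was 4.6, 0 and 1.66, which are 4, 0 and 1 reads, and in S4 it was 688. The groups overlapped only through that library, which lay above R4. The mean was 2016 ± 1248 (SD, n = 4) in resistant tumours and 174 ± 343 (SD, n = 4) in sensitive tumours, or 2.09 ± 2.33 (SD, n = 3) without S4. On the log2(normalized count + 1) scale the difference between group means was 7.37 with all 8 tumours and 9.40 without S4. Both values rest on the counts near 0 in S1 to S3 under the log. edgeR and DESeq2 compare mean counts, and S4 makes up most of the sensitive mean. They gave 3.51 and 3.54 with all 8 tumours. For all 8 members the log2 difference quoted below with all tumours is at least 1.69 times that of edgeR. The edgeR value was 0.72 for Csf3r, 0.78 for Cxcr2, 0.74 for Il1b, 0.89 for S100a8, 0.47 for S100a9, 1.0 for Retnlg and 0.74 for Clec4d. Within the resistant group the highest value was 5.66 times the lowest, the widest range of the 8 members, whose other ranges ran from 1.48 times for S100a9 to 3.53 times for Clec4d.

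Csf3r, the G-CSF receptor, was ordered nearly in reverse over the same 5 tumours. It was lowest in R1, where Csf3 was highest, with 1055, then 1128, 1515 and 2868 in R2 to R4, and 3201 in S4. S1 to S3 had 422, 158 and 179. The resistant mean of 1642 ± 842 (SD, n = 4) compared with 990 ± 1479 (SD, n = 4) in the sensitive group, or 253 ± 147 (SD, n = 3) without S4. The log2 difference was 1.77 with all tumours and 2.72 without it. Csf3 per 100 normalized counts of Csf3r was 323, 233, 93.9 and 21.0 in R1 to R4. S4 had 21.5, close to R4, and S1 to S3 had at most 1.09. The ratio therefore separated resistant tumours from one another more than either gene alone.

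Cxcr2, the receptor for neutrophil-attracting CXC chemokines, had the narrowest gap of the members on the log2(normalized count + 1) scale. With edgeR the smallest difference was that of S100a9, at 0.47 against 0.78 for Cxcr2. Its normalized count was 834, 996, 849 and 1313 in R1 to R4, 287, 237 and 232 in S1 to S3, and 1557 in S4. The log2 difference was 1.31 with all 8 tumours and 1.96 without S4. S4 was the highest of all 8, and the remaining 3 sensitive tumours were the lowest.

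Il1b, the inflammatory cytokine, had the least relative spread of the members in S1 to S3, at 153, 140 and 136. It was at 1627, 2369, 2004 and 3580 in R1 to R4, and S4 exceeded all of them with 5275. The resistant mean was 2395 ± 846 (SD, n = 4) against 143 ± 9.04 (SD, n = 3) in S1 to S3. The log2 difference was 2.70 with all 8 tumours and 4.0 without S4.

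The calprotectin genes showed the same arrangement of tumours. S100a8 was at 1625, 1207, 1992 and 1079 in R1 to R4, at 78.3, 105 and 121 in S1 to S3, and at 2864 in S4. S100a9 was at 2683, 2384, 3534 and 3477 in the resistant tumours, at 250, 126 and 137 in S1 to S3, and at 8162 in S4. For both genes S4 lay above every resistant tumour, and the resistant tumours lay above the other sensitive tumours. The log2 difference of S100a8 was 2.62 with all tumours and 3.83 without S4, and that of S100a9 was 2.77 and 4.18. The count of S100a9 over that of S100a8 varied from 1.14 in S3 to 3.22 in R4, with no split between the groups. Of 9 tested other S100 genes, 0 passed as higher and 1 as lower with limma without S4, where 2 had an unadjusted p under 0.05, and S100a6 differed by 0.42 ± 0.33 (SE).

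The granulocyte gene Retnlg and the lectin gene Clec4d were low in the same 3 sensitive tumours. Retnlg was at 301, 434, 301 and 229 in R1 to R4, at 40.3, 7.06 and 6.62 in S1 to S3, and at 568 in S4. Clec4d was at 194, 218, 208 and 684 in the resistant tumours, at 61.0, 28.3 and 29.8 in S1 to S3, and at 656 in S4. For Clec4d, R4 and S4 stood together, about level and above the other resistant tumours. Clec4d kept a narrow ratio to Csf3r, from 13.8 to 23.9 per 100 normalized counts of Csf3r in all 8 tumours. The log2 difference was 3.16 for Retnlg and 1.85 for Clec4d with all tumours, and 4.50 and 2.87 without S4.

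**Figure D1:**
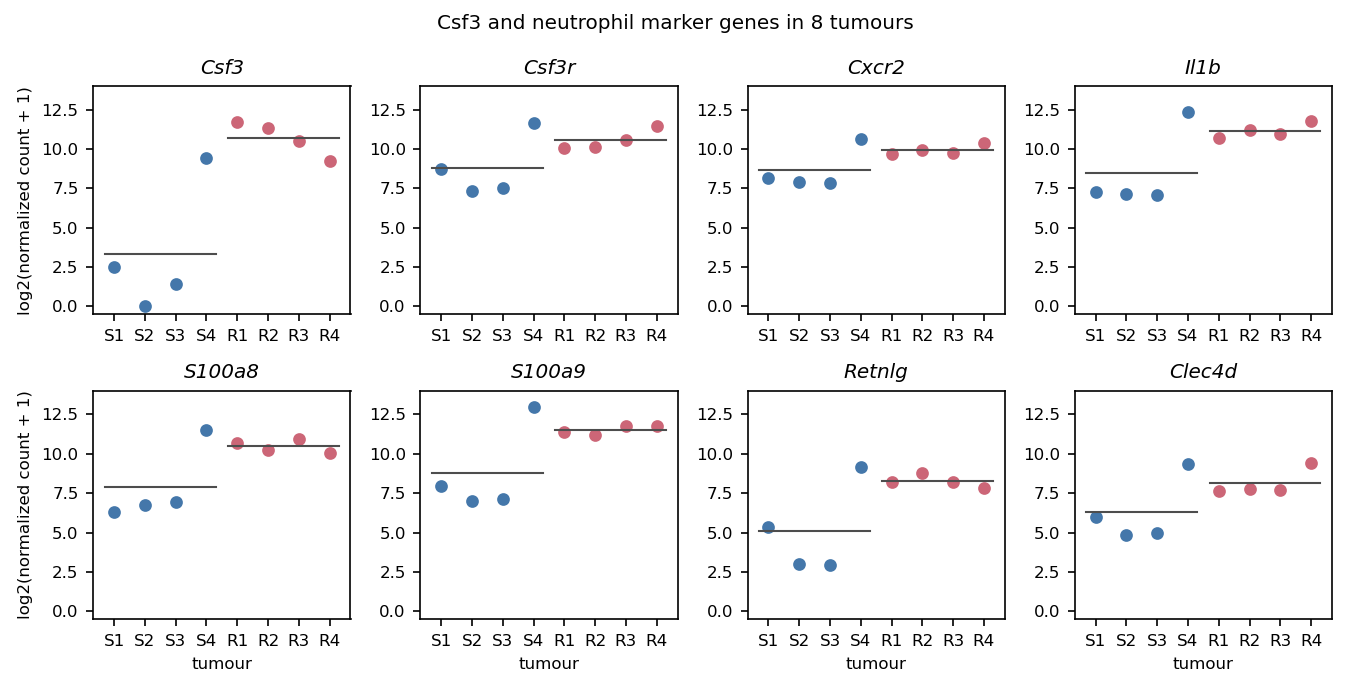
Level of each member as log2(normalized count + 1) on the y axis, in the sensitive (S1 to S4, blue) and resistant tumours (R1 to R4, red). Each point is 1 tumour and each line is the mean of 4; S4 lies among or above the resistant tumours for all 8 genes, and Csf3 falls from 3414 in R1 to 603 in R4.

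No member had every resistant tumour above every sensitive tumour, which 3.90% of all tested genes had. Without S4, all 8 members did, as did 24.3% of tested genes. Nothing is read from these counts, because the members were chosen on this contrast. S4 held the highest value of all 8 tumours for 6 of the 8 members, while it held the highest value for 13.7% of the 15076 tested genes. The exceptions were Csf3, highest in R1, and Clec4d, highest in R4.

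In bulk RNA, fewer cells of a type and less RNA per cell cannot be told apart. The members were therefore set against the summed counts of 6 pan-leukocyte markers (Ptprc, Laptm5, Coro1a, Cd52, Lcp1 and Cd53). That sum was 2395 to 4743 in S1 to S3, 14498 in S4 and 4539 to 14446 in the resistant tumours, so the ranges overlapped. Il1b per 100 of these counts was 3.23 to 5.67 in S1 to S3, 36.4 in S4 and 24.4 to 35.9 in the resistant tumours. S100a9 was 3.46 to 5.74, 56.3 and 24.1 to 59.9 in the same order. Cxcr2 overlapped instead, at 6.04 to 9.68 in S1 to S3, 10.7 in S4 and 9.09 to 18.4 in the resistant tumours. Csf3 reached 75.2 in R1 and 4.17 in R4, against 4.75 in S4 and at most 0.0971 in the others. For Il1b, S100a9 and Csf3 the separation from S1 to S3 was present relative to leukocyte markers too, and for Cxcr2 it was not complete.

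**Figure D2:**
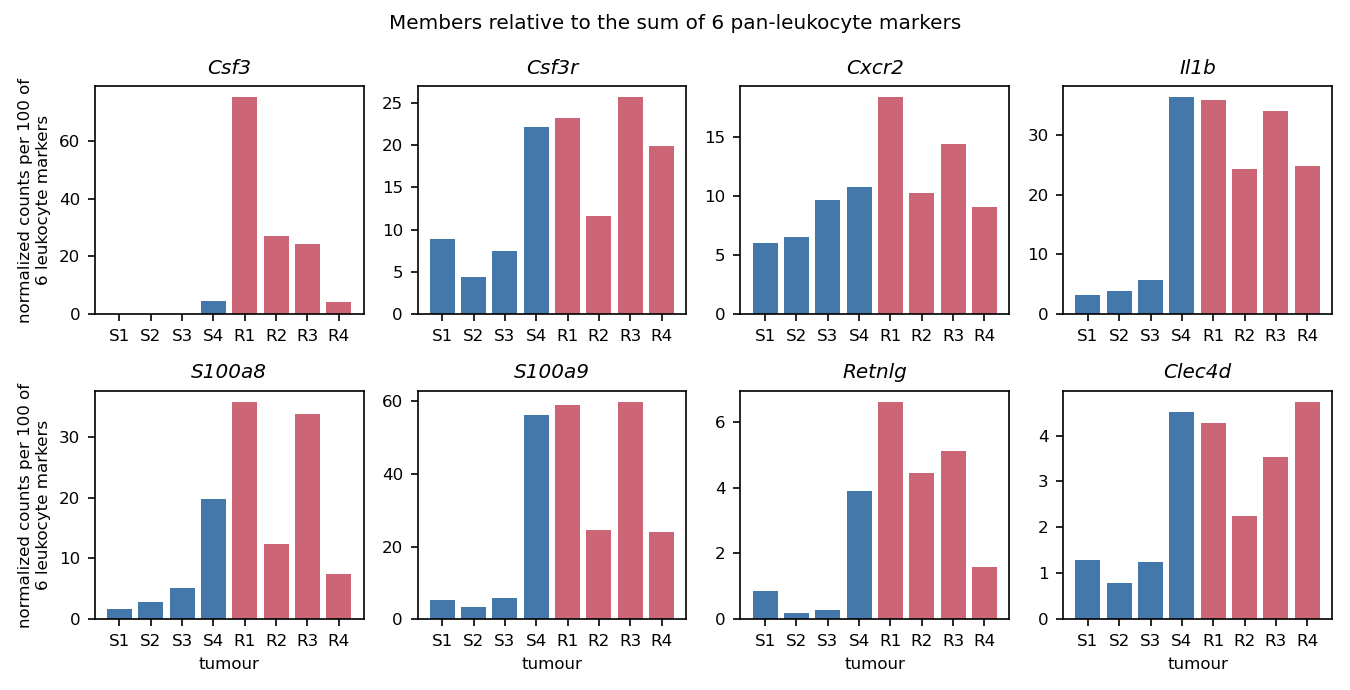
Normalized counts of each member per 100 normalized counts of 6 summed pan-leukocyte markers (y axis, from 0), with 1 bar for each tumour (S1 to S4 sensitive, blue; R1 to R4 resistant, red). Csf3 is at 75.2 in R1 and 4.17 in R4, while Cxcr2 in R4, at 9.09, lies below S3 at 9.68.

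Markers of other cell types were read in the same libraries. The sum of 12 macrophage markers was 8909 to 11895 in S1 to S3, 6730 in S4 and 3904 to 21731 in the resistant tumours, without a split between groups. The sum of 6 keratinocyte markers was 144249 to 199261, 66543 and 24038 to 67410 in the same order, and moved opposite to the members. The sum of 8 T and NK cell markers was 183 to 293, 134 and 56.3 to 393. Cd4, which some macrophages also express, held 39.6 to 345 of it, and Cd3e, chosen after its values were seen, was between 0 and 4.44. B cell markers summed to at most 45.9 and eosinophil markers to at most 34.8 in any tumour. Of 8 blood markers, 6 haemoglobin genes were listed at 0 in all libraries. The others, Alas2 and Pf4, were at 330 to 542 and at 29.3 to 321 in the tumours. The zeros are therefore not read as absence of blood. The part that macrophage, keratinocyte or leukocyte content had in the members' values was not tested.

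Other neutrophil genes came from lists chosen with earlier results of these data known. They were tested with limma over all genes, and a gene passed at a Benjamini-Hochberg adjusted p under 0.05. With all 8 tumours, 0.0332% of 15076 tested genes passed as higher in resistant tumours and 0.0796% as lower. Of the 148 tested genes on all lists together, 0 passed and 47 had an unadjusted p under 0.05. On the recovered reads edgeR passed 0 of them and DESeq2 21, with 16 higher and 5 lower. Over all 15076 tested genes DESeq2 passed 519 as higher and 1111 as lower. Without S4, 20.6% of 15479 tested genes passed as higher and 19.4% as lower, and the list counts that follow are read against those shares. A gene was tested if it reached 10 normalized counts in 3 tumours. Of the 151 list genes tested without S4, 7 reached 10 only in resistant tumours and 1 (Prtn3) only in sensitive tumours, so the filter itself bears on their calls. Counts without such genes are given beside those they change. The values without S4 have sex, depth and group moving together. S4 was singled out on its values in these same data, so counts and adjusted p-values without it are descriptive and are not independent tests.

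Surface and recruitment genes of neutrophils had the members' arrangement of tumours. All 23 tested were higher on average in resistant tumours with all 8 tumours, as were 7838 of all 15076 tested genes. Their median log2 difference was 1.80 against 0.03 over all genes, but 0 passed with limma, 7 having an unadjusted p under 0.05. Without S4, 18 of 23 passed as higher and 0 as lower, with a median of 2.62 against 0.02. Of the 21 genes that reached the filter beyond the resistant tumours, 16 passed as higher. Hcar2, a hydroxycarboxylic acid receptor, differed by 1.96 ± 0.84 (SE, limma adjusted p = 0.188) with all tumours and by 2.92 ± 0.33 (SE, limma adjusted p = 0.000457) without S4. The list is not of surface proteins alone, as Irg1 on it encodes an enzyme that makes itaconate in activated myeloid cells. Irg1 had normalized counts of 28.2 to 369 in S1 to S3, 3552 in S4 and 585 to 1587 in resistant tumours. Itgam, the integrin of neutrophils and macrophages alike, overlapped, at 856 to 3511, 5524 and 1897 to 7515, and did not pass (0.84 ± 0.57, SE, without S4). S4 or R4 held the highest value for 22 of the 23 genes, and for 3706 of the 15076 tested genes.

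Granule genes are transcribed at successive stages of neutrophil maturation. The primary granule genes Mpo, Elane, Prtn3 and Ctsg, which promyelocytes in the marrow transcribe, stayed at or below 23.2 normalized counts in every tumour. Among secondary granule genes, Ltf was at 8.06 to 18.2 in S1 to S3, 76.0 in S4 and 9.62 to 17.4 in resistant tumours, so only S4 was apart. Camp was at 0 to 3.45, 52.7 and 16.6 to 74.1, and Ngp at 13.2 to 25.3, 363 and 86.6 to 119, both higher in every resistant tumour than in S1 to S3. Ngp differed by 1.35 ± 0.92 (SE, limma adjusted p = 0.359) with all tumours and by 2.43 ± 0.29 (SE, limma adjusted p = 0.000597) without S4. Mmp8, the neutrophil collagenase, was at 69.1, 12.7 and 44.7 in S1 to S3, 1000 in S4, and 553, 603, 314 and 652 in R1 to R4. These granule genes were singled out after their values were seen. Mmp9, gelatinase B, was at 111 to 216, 1332 and 621 to 5766, and differed by 2.67 ± 0.86 (SE, limma adjusted p = 0.147) with all tumours. Lyz2, a lysozyme shared with macrophages, reached 67712 in R4 and 4712 in R1, inside which range all sensitive tumours fell. Cybb, of the same list, overlapped, at 538 to 1060 in S1 to S3, 1876 in S4 and 541 to 4686 in resistant tumours. Without S4, 7 of 14 tested granule genes passed as higher and 1 as lower; Camp among the former and Prtn3, the latter, reached the filter in 1 group only. With all tumours 0 of 13 passed with limma, 5 having an unadjusted p under 0.05.

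**Figure D3:**
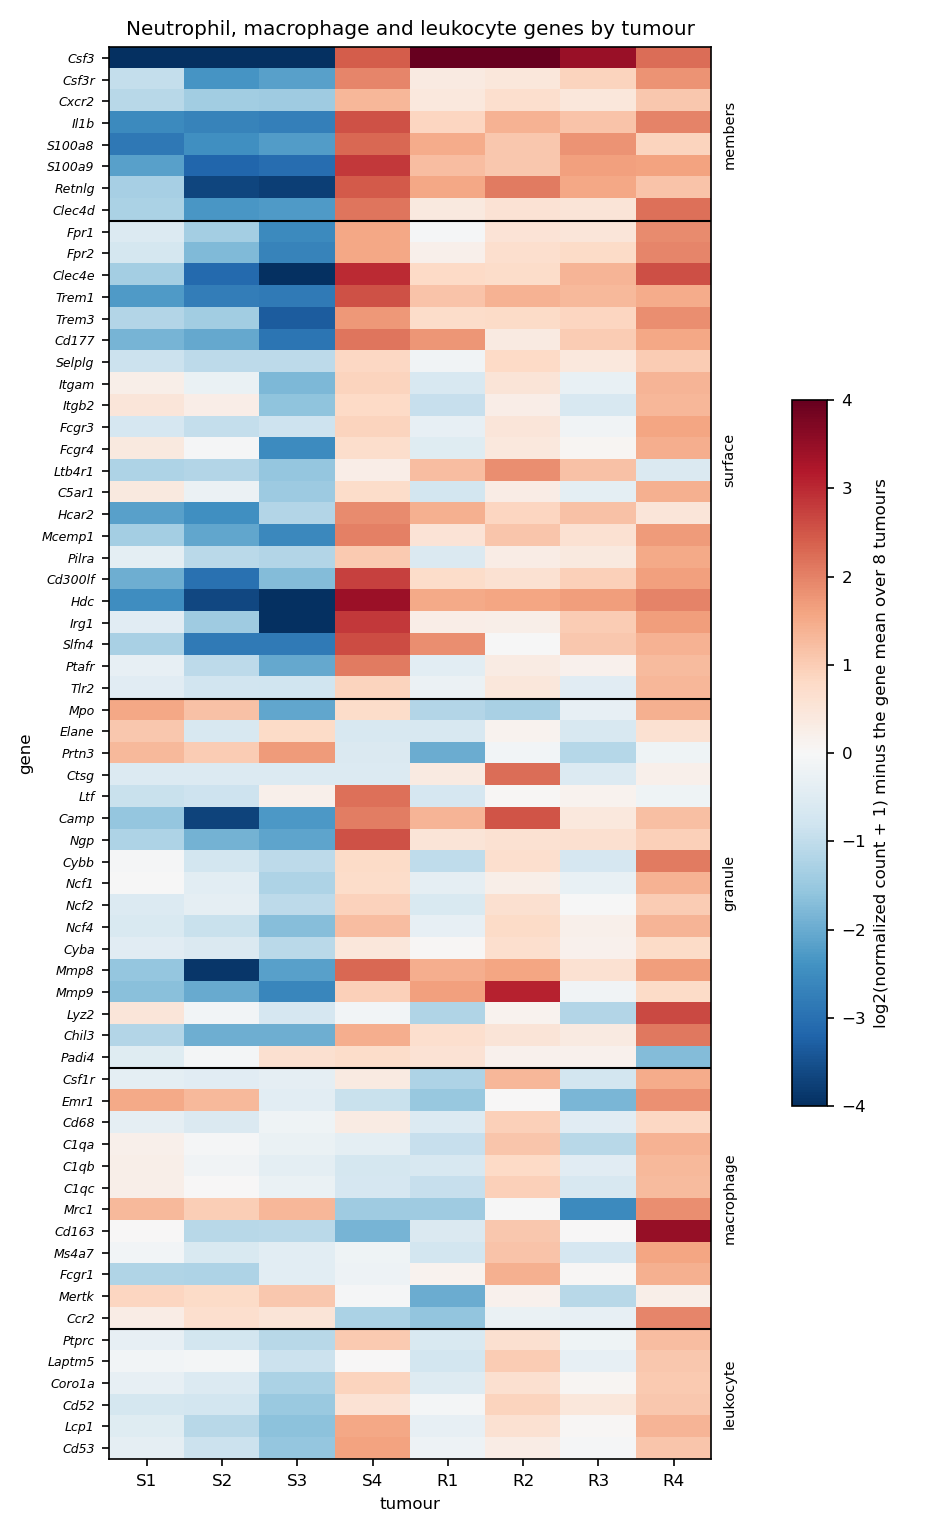
Each row is a gene and each column a tumour; colour gives log2(normalized count + 1) minus the gene's mean over the 8 tumours, cut at -4 and 4, with gene groups named at the right. Members and most surface genes are blue in S1 to S3 and red in S4 and R1 to R4, whereas the macrophage rows show no such split.

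The ligands of Cxcr2 had large differences. Cxcl2 was at 29.9, 8.48 and 0 in S1 to S3, 5283 in S4, and 1546, 1651, 2600 and 1485 in R1 to R4. Cxcl5 was at 11.3 to 24.2, 363 and 213 to 1143, and Cxcl1 at 8.28 to 23.0, 262 and 262 to 938. The summed ligand list was 36.4 to 89.8 in S1 to S3, 6794 in S4 and 2501 to 4205 in resistant tumours. All 5 tested were higher on average with all tumours (median log2 difference 3.95), as were 7838 of all 15076 tested genes. None passed with limma or edgeR, 4 having an unadjusted limma p under 0.05, and DESeq2 passed 2 as higher. Without S4, 4 of 5 passed as higher, or 3 of 4 without Cxcl3, which reached the filter only in resistant tumours. Cxcl1 differed by 4.91 ± 0.48 (SE, limma adjusted p = 0.000262).

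The list of cytokines taken as inducers of Csf3 held 13 genes, of which 7 were tested. Their median log2 difference was 2.15 with all tumours. On average 6 of 7 were higher, against 7838 of all 15076 tested genes. Il17a was at 0 in every tumour and Il17f at 1.59 at most, so neither was tested. Tnf was at 54.6 to 78.3 in S1 to S3, 362 in S4 and 95.5 to 211 in resistant tumours. Lif, an interleukin-6 family cytokine, was at 63.3, 100 and 134 in S1 to S3, 1312 in S4, and 3246, 2952, 1568 and 956 in R1 to R4. The order over R1 to R4 and S4 was that of Csf3, with R1 highest and R4 lowest. Il1a was at 43.7 to 91.8, 1665 and 322 to 920. Il1f9, which encodes interleukin-36 gamma, was at 406 to 429 in S1 to S3, 1472 in S4 and 330 to 559 in resistant tumours, so S4 alone was high. Of 7 tested, 0 passed with limma or edgeR with all tumours, 3 having an unadjusted limma p under 0.05, and DESeq2 passed 3 as higher. Without S4, 6 passed as higher with limma (median log2 difference 3.07). Il6 and Osm reached the filter only in resistant tumours, and of the other 5 genes 4 passed as higher.

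The signalling genes behind these receptors had smaller differences. In the G-CSF receptor list, 6 of 14 passed as higher and 4 as lower without S4, with a median log2 difference of 0.41. Socs3, the feedback inhibitor that G-CSF receptor signalling induces through STAT3, was at 349 to 578 in S1 to S3, 1354 in S4 and 1071 to 1294 in resistant tumours; it was picked after its values were seen. Stat3 itself differed by -0.14 ± 0.20 (SE) and Mcl1, an antiapoptotic gene of neutrophils, by 0.23 ± 0.21 (SE) with all tumours, and neither passed with limma. Jak1 differed by -0.62 ± 0.19 (SE) without S4 and passed as lower. In the interleukin-1 receptor list, 6 of 14 passed as higher and 0 as lower without S4. Il1r1, the signalling receptor, was at 1186 to 1361, 4025 and 2369 to 5827, and Il1rn, the receptor antagonist, at 220 to 295, 6165 and 878 to 1790. In the interleukin-17 list, 3 of 7 passed as higher and 1 as lower. Lcn2, the siderophore-binding protein lipocalin 2, was at 664 to 1102 in S1 to S3, 13599 in S4 and 3187 to 6472 in resistant tumours.

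Of the remaining lists, granulocyte transcription factors, other myeloid growth factors, endothelial adhesion genes and macrophage markers held calls in both directions without S4. Pan-leukocyte markers and mast cell markers (1 of 5 tested) held calls only upwards, and keratinocyte markers only downwards. T and NK cell, B cell and blood markers held none, and no eosinophil marker was tested. Among granulocyte transcription factors 4 of 7 passed as higher and 2 as lower without S4, with Cebpd at 0.77 ± 0.25 (SE) and Runx1 at -1.0 ± 0.28 (SE). Of other myeloid growth factor genes 4 of 7 passed as higher and 1 as lower, and Csf2rb, the shared beta chain of the GM-CSF receptor, differed by 1.36 ± 0.31 (SE). Of endothelial adhesion genes 3 of 8 passed as higher and 1 as lower, and Icam1, the ligand of leukocyte integrins, differed by 1.88 ± 0.19 (SE). Vcam1 differed by 1.03 ± 0.46 (SE) and did not pass, and Cd34 differed by -0.63 ± 0.20 (SE) and passed as lower. Macrophage markers gave 1 of 12 higher and 1 lower, pan-leukocyte markers 3 of 6 higher and keratinocyte markers 6 of 6 lower, with Krt5 at -1.85 ± 0.44 (SE). With all 8 tumours, 0 genes of these lists passed with limma or edgeR. DESeq2 passed 2 transcription factors, 1 growth factor gene, 2 endothelial genes and 2 macrophage markers as higher, and 5 keratinocyte markers as lower. Beside these counts, it passed 519 of all 15076 tested genes as higher and 1111 as lower.

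The genes whose centred log2 profiles over the 8 tumours lay closest to that of Csf3 were, among 12161 candidates, Eya1, Foxa2, Cxcl3, Igf2os, Il20ra and Sall3. Their root mean square differences from Csf3 ran from 0.98 to 1.66 log2 units, and for Cxcl3 and Foxa2 S1 to S3 were listed at 0. No member was among them: the nearest, Retnlg, ranked 49 of the candidates and Cxcr2 was the farthest at 570. Nearest to S100a8 were Lsp1, P4ha2, Slc16a3, Capn6, Apela and Hhipl1, at 0.37 to 0.44 log2 units. S100a9 ranked 25 and Il1b 27 against S100a8. The points are 8 tumours that share the split between S1 to S3 and the rest, so the measure weighs that split and its size.

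ASZ001 cells carried almost none of these transcripts. Over 9 libraries of 30455530 to 44017757 reads at genes, Csf3 had 2 reads in all, Csf3r 7, Il1b 10 and S100a9 1. S100a8 had 22 reads, at most 6 in a library. Retnlg and Clec4d had 0 reads in every library, which allows up to 2.45 to 3.40 normalized counts in a library (3 reads, counting error only). No treatment brought any of these 7 genes past the filter of 10 normalized counts in 3 libraries. The leukocyte markers summed to 14.7 to 45.0 in these cells, and keratinocyte markers were at 187998 or above.

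Cxcr2 was the exception. Its normalized count in ASZ001 was 71.1, 44.7 and 55.5 with vehicle, 106, 109 and 137 with CCG-1423, and 67.1, 57.0 and 47.0 with vismodegib. All 3 CCG-1423 libraries lay above all vehicle libraries, while the vismodegib range lay inside that of vehicle. The log2 difference was 1.04 ± 0.18 (SE, n = 3 against 3, limma adjusted p = 7.58e-05) for CCG-1423 and 0.01 ± 0.18 (SE, limma adjusted p = 0.989) for vismodegib. In the CCG-1423 contrast 42.8% of 12775 tested genes passed as higher and 42.6% as lower, so a call there is common. In RPM, reads scaled to each library's total, Cxcr2 was at 1.23 to 3.94 in ASZ001. It was at 17.3 to 22.4 in S1 to S3, 54.4 to 94.0 in resistant tumours and 108 in S4; the tables were normalized separately, and this difference was not tested.

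Several genes of the chemokine and cytokine lists were higher in ASZ001 with CCG-1423, while Csf3 was not detected there. Cxcl1 was at 42.2 ± 13.3 (SD, n = 3) with vehicle and 370 ± 86.3 (SD, n = 3) with CCG-1423, a log2 difference of 3.13 ± 0.23 (SE, limma adjusted p = 2.33e-09). Cxcl3 was at 0 to 1.63 with vehicle and 11.2 to 14.8 with CCG-1423, and Cxcl3 was tested only because the CCG-1423 libraries reached the filter. Of 3 tested Cxcr2 ligands 2 passed as higher, or 1 of 2 without Cxcl3. Of 5 tested cytokines listed as inducers of Csf3, 4 passed as higher and 1 as lower. Without Il1a and Il33, which reached the filter only with CCG-1423, 2 of 3 passed as higher and 1 as lower. Tnf went from 12.5 ± 3.49 (SD, n = 3) to 185 ± 33.5 (SD, n = 3), Lif from 265 ± 17.1 (SD, n = 3) to 1363 ± 23.8 (SD, n = 3), and Il1f9 fell by 1.01 on the log2 scale. Csf3 had 0 reads in all 3 of these CCG-1423 libraries.

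Signalling and growth factor genes moved both ways with CCG-1423. In the G-CSF receptor list 10 of 13 passed as higher and 2 as lower, among them Jak2, the receptor-associated kinase (1.52 ± 0.04, SE), and Socs3 (2.07 ± 0.07, SE), with Mcl1 at -0.53 ± 0.03 (SE). In the granulocyte transcription factor list 3 of 6 passed as higher and 3 as lower, with Cebpb at 2.00 ± 0.04 (SE). Csf1, the macrophage growth factor, rose from 84.2 ± 12.7 (SD, n = 3) to 1150 ± 102 (SD, n = 3), and Csf2rb fell from 76.2 ± 8.56 (SD, n = 3) to 2.71 ± 1.80 (SD, n = 3). Of the 23 genes on the neutrophil surface and recruitment list, 4 were tested in these cells and passed as higher. Selplg, 1 of them, reached the filter only with CCG-1423. Hcar2 went from 158 ± 10.5 (SD, n = 3) to 573 ± 53.5 (SD, n = 3). The interleukin-1 list gave 5 of 12 higher and 7 lower, and the interleukin-17 list 4 of 6 higher and 1 lower. Other S100 genes gave 2 of 9 higher and 7 lower, the 2 being S100a7a and S100a13, which reached the filter only with CCG-1423, with S100a6 at -1.87 ± 0.04 (SE), and keratinocyte markers 6 of 6 lower.

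Vismodegib, compared with the same vehicle libraries, changed few of these genes. Over all tested genes 1.58% passed as higher and 3.92% as lower, or 202 and 501 genes, and with scaling by total reads 2923 passed as higher and 306 as lower. Of 82 list genes tested, 2 passed as higher and 5 as lower. Of 3 tested Cxcr2 ligands and 5 cytokines listed as inducers of Csf3, 0 passed with limma, edgeR or DESeq2. With limma, 1 of each had an unadjusted p under 0.05. Cxcl1 was at 34.4 ± 6.90 (SD, n = 3). Klf5, a factor of epithelial and myeloid cells, fell by 0.42 on the log2 scale and Runx1 by 0.22, and Cebpa rose by 0.24. Cebpa did not pass without vehicle replicate 2, vismodegib replicate 2 or vismodegib replicate 3.

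**Figure D4:**
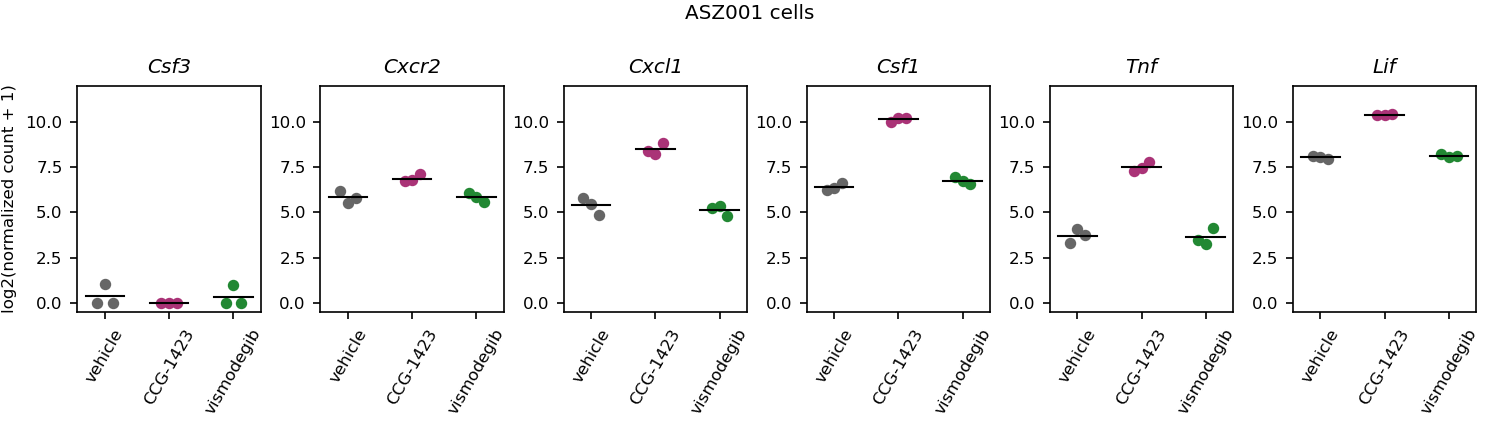
Levels in ASZ001 cells as log2(normalized count + 1) on the y axis, by treatment on the x axis; each point is 1 library and each line the mean of 3. Csf3 stays at or near 0 under every treatment, while Cxcr2, Cxcl1, Csf1, Tnf and Lif are higher with CCG-1423 than with vehicle.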

How the data were processed

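RNA from 8 tumours and 9 ASZ001 libraries was analysed. The authors deposited tables of normalized read counts (unit: signal, reads divided by a size factor per library). Per the submitters' processing notes, TopHat, DESeq and the mm9 build were used, with no versions or roles. The deposited signal values returned whole reads in 100% of cases within 0.01 read. limma 3.58.1 (R 4.3.3) tested log2(normalized count + 1) over all genes with at least 10 in 4 tumours or 3 cell libraries, with 1 fit for all 9 cell libraries; edgeR 4.0.16 and DESeq2 1.42.0 ran on recovered reads. The procedure was tested on simulated data. Chi-square over degrees of freedom between replicates was 13.5 to 183 in tumours and 1.84 to 40.9 in cells, more than counting error alone gives. Within a group, no library was therefore another one sequenced again. Libraries of different groups, such as S4 and the resistant tumours, were not compared in this way. The values do not show whether replicates came from separate animals or cultures. Replicate numbers were not treated as pairs.

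Members and gene lists were chosen with earlier results of these data known. Genes named were drawn, for each list, from the 3 of highest mean and those that passed in the tumours with all 8. In the cells the 2 of smallest p in each direction were added. The 6 closest to Csf3 or S100a8 with a mean of at least 50 are named too. Not every gene under these rules is named, and Csf1r, Emr1, C1qb and Id1 are among those left out. Tnf, Il17a and Il17f are named in the tumours because the opening names these cytokines as inducers of Csf3. Others are marked as chosen after their values were seen, or are named because they reached the filter in 1 group only. In the surface list, 1 gene is not reported here.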

Additional observations from a re-analysis of the deposited data

Results flagged for a closer look

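In 34 groups of 4 tumours (each member and each summed marker list, in each label group), 10 held a library whose gap to its nearest neighbour was above Dixon's critical value for a group of 4, a mark that chance gives to about 1 in 20 groups. The members were chosen on these tumours, so the marks are a description and support nothing. S4, sensitive tumour 4, was marked as far above the other sensitive tumours for 12.4% of all 15076 tested genes. It was the library marked in 9 of the 10 groups. Its normalized counts were 688 for Csf3, 3201 for Csf3r, 1557 for Cxcr2, 5275 for Il1b, 2864 for S100a8, 8162 for S100a9, 568 for Retnlg and 656 for Clec4d. The summed Cxcr2 ligand list, with Cxcr1, stood at 6794 there. The remaining group was Clec4d in resistant tumour 4, at 684 among resistant tumours, where 1.72% of tested genes were marked for that library. Groups that share a library are not independent of each other.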

How the results depend on the processing

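In the tumours, limma passed 17 of 15076 genes at an adjusted p under 0.05 (3789 at an unadjusted p under 0.05). The count was 0 with a pseudocount of 0.5, 0 with edgeR (3513 unadjusted), 0 with scaling by total reads and 1630 with DESeq2, and it ranged from 0 to 6184 when each tumour was left out in turn. The 6184 came without sensitive tumour 4, and leaving out any other tumour gave 0. The cause of the other changes was not tested. For all 8 members the log2 difference with all tumours was 1.69 to 5.87 times that of edgeR, the latter for S100a9 (2.77 against 0.47); for Csf3, Il1b, S100a9 and Retnlg the change exceeded the spread between replicates. For CCG-1423, 10901 genes passed, and the count stayed within 1.5 times under all 16 alternatives; Cxcr2 passed in each, with log2 differences of 0.88 to 1.21. For vismodegib, 703 genes passed, 3229 with scaling by total reads, which moved the median of all genes by 0.09 against 0.01, and 325 to 1491 with each library left out, 1491 without CCG-1423 replicate 1. With a replicate block the counts were 0 in the tumours, 10848 for CCG-1423 and 606 for vismodegib. Same-numbered samples did not deviate together (correlations -0.15 to 0.12 in tumours and -0.04 to 0.04 in cells), so no pairing by number was seen. In the sensitive tumours the deviations from the group mean largely reflect the distance of S4 from the rest. Pairing of tumours therefore cannot be decided from these values. In sensitive tumours 1 to 3, 3 reads correspond to up to 4.97 normalized counts, which limits Csf3 there.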
